A study of Mus musculus with 278 samples.

Results

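Keratinocytes, the cells that form the epidermis, were profiled singly from mouse cultures to ask how cells respond to neighbours with active beta-catenin. The genes described here are 10 genes of suprabasal differentiation and the cornified envelope (Krt1, Krt10, Ivl, Lor, Flg, Sprr1a, Sprr1b, Tgm1, Sbsn and Krtdap), chosen by name. Of these, 7 of the 10 had a row among the 14145 genes of the deposited table, and Lor, Flg and Tgm1 were not analysed here. Krt1 was seen in a single cell, so that 6 of the 10 were among the 12355 genes tested. All cells came from keratinocytes of adult dorsal skin, cultured with 9 parts wild type cells to 1 part K14ΔNβ-cateninER cells. In the latter a stable form of beta-catenin is joined to the hormone-binding part of the oestrogen receptor, under the Keratin 14 promoter. Untreated co-cultures received DMSO and treated co-cultures received 200 nM 4OHT (4-hydroxy-tamoxifen, which activates the fusion protein) for 24 h. The transgenic cells, which the study removed, were not told apart here.

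The library names fall into the series AG and GHA501A, each with untreated and treated cells. After leaving out 8 AG cells whose name and treatment label conflict, there were 66 AG untreated, 64 AG treated, 71 GHA501A untreated and 69 GHA501A treated cells, 270 of 278 labelled cells. These 4 sets were taken as 2 replicates per condition. The labels name no separate cultures or animals, so the spread between sets may be technical. Values are TPM (transcript level per length, scaled to 1000000 in every cell), so the depth of a cell is unknown. No pair of cells had identical values. The median cell had from 6008 to 6392 genes over TPM 1, depending on the set. Cells were captured on a chip for diameters of 10 to 17 μm, and the study states that large, terminally differentiated cells were lost by this.

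As epidermal cells leave the basal layer they replace Krt5 and Krt14 with Krt1 and Krt10, the keratin pair of the spinous layer. They then make a protein shell under the plasma membrane, the cornified envelope. Involucrin (Ivl) is an early scaffold of that shell, small proline-rich proteins such as Sprr1a and Sprr1b are cross-bridges within it, loricrin (Lor) is its main late component, and transglutaminase 1 (Tgm1) is the enzyme that crosslinks them. Filaggrin (Flg) binds keratin filaments, while suprabasin (Sbsn) and keratinocyte differentiation-associated protein (Krtdap) are secreted by suprabasal cells.

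Sprr1b, Sprr1a and Ivl lie in this order on chromosome 3 in the epidermal differentiation complex, all on the minus strand (GRCm38, GENCODE M21). Their positions are chr3:92436809-92438789, chr3:92483952-92485895 and chr3:92570902-92573735, with gaps of 45.2 kb and 85.01 kb between neighbours. Sbsn (chr7:30751471-30756134) and Krtdap (chr7:30787896-30791097) are also neighbours, 31.8 kb apart on the plus strand. Krt10 lies at chr11:99385254-99389364 and Krt1 at chr15:101845426-101850794, both on the minus strand. RefSeq promoter windows of 300 bases around the gene start (GRCm38.p6, ending 50 bases after it) were held for 6 of the 7 genes, all but Krt1. The windows of the 3 chromosome 3 genes are shown because these neighbours had very different levels, and that of Krt10 because it was found in most cells of every set. Each is printed on the gene's own strand, with capitals for matches to TGANTCA (the AP-1 motif) or TATAAA (the TATA box), which share no bases where they occur here.
Sprr1a, chr3:92485832-92486131: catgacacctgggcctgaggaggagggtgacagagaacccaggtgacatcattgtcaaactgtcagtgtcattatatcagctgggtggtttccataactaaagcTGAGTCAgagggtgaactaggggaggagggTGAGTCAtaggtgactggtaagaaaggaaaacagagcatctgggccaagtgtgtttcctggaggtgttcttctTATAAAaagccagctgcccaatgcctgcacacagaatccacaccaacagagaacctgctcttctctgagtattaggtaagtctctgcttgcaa
Sprr1b, chr3:92438730-92439029: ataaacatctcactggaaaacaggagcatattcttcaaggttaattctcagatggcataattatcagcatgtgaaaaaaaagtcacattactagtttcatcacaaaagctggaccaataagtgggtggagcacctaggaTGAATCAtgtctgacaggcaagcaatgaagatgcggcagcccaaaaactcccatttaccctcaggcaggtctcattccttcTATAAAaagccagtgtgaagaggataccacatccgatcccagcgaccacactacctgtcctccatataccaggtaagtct
Ivl, chr3:92573686-92573985: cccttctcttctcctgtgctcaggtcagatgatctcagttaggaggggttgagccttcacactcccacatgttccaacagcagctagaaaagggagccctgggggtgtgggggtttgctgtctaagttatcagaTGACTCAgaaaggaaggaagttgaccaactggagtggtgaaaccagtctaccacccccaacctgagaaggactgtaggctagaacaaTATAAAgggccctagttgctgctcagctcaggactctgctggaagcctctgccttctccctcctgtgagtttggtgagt
Krt10, chr11:99389315-99389614: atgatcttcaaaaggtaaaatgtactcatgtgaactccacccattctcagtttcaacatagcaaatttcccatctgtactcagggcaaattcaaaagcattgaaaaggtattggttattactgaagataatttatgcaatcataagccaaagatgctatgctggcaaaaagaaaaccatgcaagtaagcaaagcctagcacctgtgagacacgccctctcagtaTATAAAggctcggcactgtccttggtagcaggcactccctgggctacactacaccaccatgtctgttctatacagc

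Searched on both strands, TGANTCA was found in 5 of the 6 windows, all but that of Krt10. Among all 32851 windows of the same length, 7.81% held it. Sprr1a had it at positions -146 and -116 from the gene start, Sprr1b at -111, Ivl at -116 and Krtdap at -81, while Sbsn had it at -119 and -6. TATAAA was also in 5 of the 6 windows, all but that of Sbsn, against 13.6% of all windows. The Sprr1a and Sprr1b windows shared no exact run longer than 13 bases, and their transcripts none longer than 20 bases, which is shorter than a read of 100 bases. Within the Sbsn transcript, a run of 239 bases occurred more than once. Multiply-mapped reads were discarded by the authors, so the level of Sbsn is uncertain.

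The labelled cell type was checked first, because it bears on every comparison between the series. Krt14 was over 100 TPM in 66 of 66 AG untreated and 63 of 64 AG treated cells, but in 10 of 71 GHA501A untreated and 20 of 69 GHA501A treated cells. The median Krt14 level was 4864 and 4997 TPM in the AG sets and 2.25 and 10.1 TPM in the GHA501A sets. Col1a1, a collagen chain made by fibroblasts, had a median of 0 in both AG sets and of 1123 and 909 TPM in the GHA501A sets, where it was over TPM 1 in 100% of cells. Summed over the 8 of 12 fibroblast markers with a row, the median cell held 785 and 824 TPM in AG (42.96 to 2985 untreated and 10.6 to 5379 treated) and 5040 and 4371 TPM in GHA501A (242 to 20852 and 213 to 30606). None of the 8 was at 0 throughout a set. Summed over the 10 of 11 basal keratinocyte markers with a row, it held 9956 and 10050 TPM in AG (1189 to 21098 and 707 to 33030) and 13.04 and 46.3 TPM in GHA501A (0 to 12667 and 0.657 to 21365), with Itgb4 listed at 0 in AG. Median sums for melanocyte, immune and smooth muscle markers were below 100 TPM and for endothelial markers 0 in every set. Those for sebocyte markers were 459 and 465 TPM in AG and 384 and 373 TPM in GHA501A, and those for hair follicle markers 481, 375, 248 and 141.4 TPM in the same order. Only 4 of 7 melanocyte, 2 of 7 immune, 3 of 5 smooth muscle and 2 of 5 endothelial markers had a row. The highest cell held 54196 TPM of immune markers in GHA501A treated and 6197 TPM of smooth muscle markers in AG untreated cells. Low medians thus do not exclude single cells of these types. The markers thus go against the keratinocyte label in most GHA501A cells, and the treatment differences are also given for each series alone. In addition, 1394 genes were listed at 0 in every GHA501A cell, 34 of them over TPM 1 in over 50% of the AG cells, and 35 were listed at 0 in every AG cell. Whether this comes from cell make-up or from quantification was not tested, and a gene at 0 throughout a series is only called listed at 0.

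Krt10, the acidic spinous keratin, was found in most cells of every set at a low level, and its partner Krt1 was almost never found. Krt10 was over TPM 1 in 80.3% of AG untreated cells (95% Wilson interval 69.2 to 88.1%), 92.2% of AG treated cells (82.98 to 96.6%), 76.1% of GHA501A untreated cells (64.96 to 84.5%) and 59.4% of GHA501A treated cells (47.6 to 70.2%). Such intervals cover counting error only. Cells ranged from 0 to 280 TPM in AG untreated (median 14.3), to 175.3 in AG treated (median 19.7), to 833 in GHA501A untreated (median 7.17) and to 125.4 in GHA501A treated (median 2.31). The ranges of all 4 sets overlapped widely, and no set had Krt10 near the level of Krt14 in AG. Krt1 was over TPM 1 in 1 of 270 cells, AG untreated cell 73, at 15.1 TPM. That cell had 20.3 TPM of Krt10, 8823 TPM of Sprr1a, 460 TPM of Sprr1b, 31.1 TPM of Sbsn and 224 TPM of Krtdap, with Ivl at 0. It ranked 2 of 66 in its set for both Sbsn and Krtdap. In GHA501A, Krt1 was only listed at 0.

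Sprr1a was the most abundant of the 7 genes in the mean of each set, and the one with the widest gap between the series. It was over TPM 1 in 92.4% (83.5 to 96.7%) of AG untreated and 84.4% (73.6 to 91.3%) of AG treated cells, but in 30.99% (21.4 to 42.5%) of GHA501A untreated and 42.03% (31.1 to 53.8%) of GHA501A treated cells. Its level ran from 0 to 19507 TPM in AG untreated cells (median 912) and from 0 to 27010 in AG treated cells (median 1063). In GHA501A it ran from 0 to 2244 TPM in untreated and from 0 to 12874 in treated cells, with a median of 0 in both. Most AG cells were thus high and most GHA501A cells were at 0, although single cells overlapped, with 6 AG cells above the highest GHA501A cell. Sprr1a alone made up 92.2% and 91.6% of the summed TPM of the 7 genes in AG untreated and treated cells, and 53.1% and 58.6% in GHA501A.

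Sprr1b, the paralog 45.2 kb away, was found in fewer AG cells than Sprr1a. It was over TPM 1 in 34.8% (24.5 to 46.9%) of AG untreated, 43.8% (32.3 to 55.9%) of AG treated, 11.3% (5.82 to 20.7%) of GHA501A untreated and 37.7% (27.2 to 49.5%) of GHA501A treated cells. The median was 0 in every set, and the highest cells reached 1319, 2392, 370 and 6724 TPM in the same order. Where it was found in GHA501A untreated cells the median was 190 TPM (8 cells), against 14.5 TPM in GHA501A treated cells (26 cells). The larger number of treated cells with Sprr1b therefore held mostly low values. Both Sprr1 genes are among the markers by which the study told its cell states apart in these cells, so their spread between cells is not independent evidence of such states.

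Ivl was present in few cells but at high levels in some of them. It was over TPM 1 in 17 of 66 AG untreated, 13 of 64 AG treated, 2 of 71 GHA501A untreated and 7 of 69 GHA501A treated cells (25.8%, 20.3%, 2.82% and 10.1%). The highest cells held 3615, 1479, 117 and 986 TPM, and the median of each set was 0. A single cell gave 65.3%, 56.3%, 87.8% and 49.9% of all Ivl TPM in its set. The mean level of Ivl in a set is thus largely the level of 1 cell.

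Sbsn and Krtdap, the secreted pair on chromosome 7, were over TPM 1 in 13.8% of AG and 27.9% of GHA501A cells for Sbsn and 20% and 22.1% for Krtdap over both sets of each series. Averaged over the treatments, the share in AG minus that in GHA501A was -13.97 percentage points for Sbsn and -2.32 for Krtdap, but -5.08 and 6.81 when TPM over 10 was counted, so the order turned for Krtdap. Sbsn was over TPM 1 in 9.09% (4.23 to 18.4%) of AG untreated, 18.8% (11.1 to 29.97%) of AG treated, 25.4% (16.7 to 36.6%) of GHA501A untreated and 30.4% (20.8 to 42.1%) of GHA501A treated cells. It was low, with highest cells of 231, 94.9, 110 and 333 TPM. Krtdap was over TPM 1 in 19.7% (11.9 to 30.8%), 20.3% (12.3 to 31.7%), 9.86% (4.86 to 18.98%) and 34.8% (24.6 to 46.6%) of the cells in the same order, with highest cells of 1039, 395, 88.7 and 2300 TPM. The median of detected cells was 14.2 and 138.6 TPM in AG and 1.39 and 4.41 TPM in GHA501A. The GHA501A cells with Krtdap thus held mostly a few TPM of it.

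**Figure D1:**
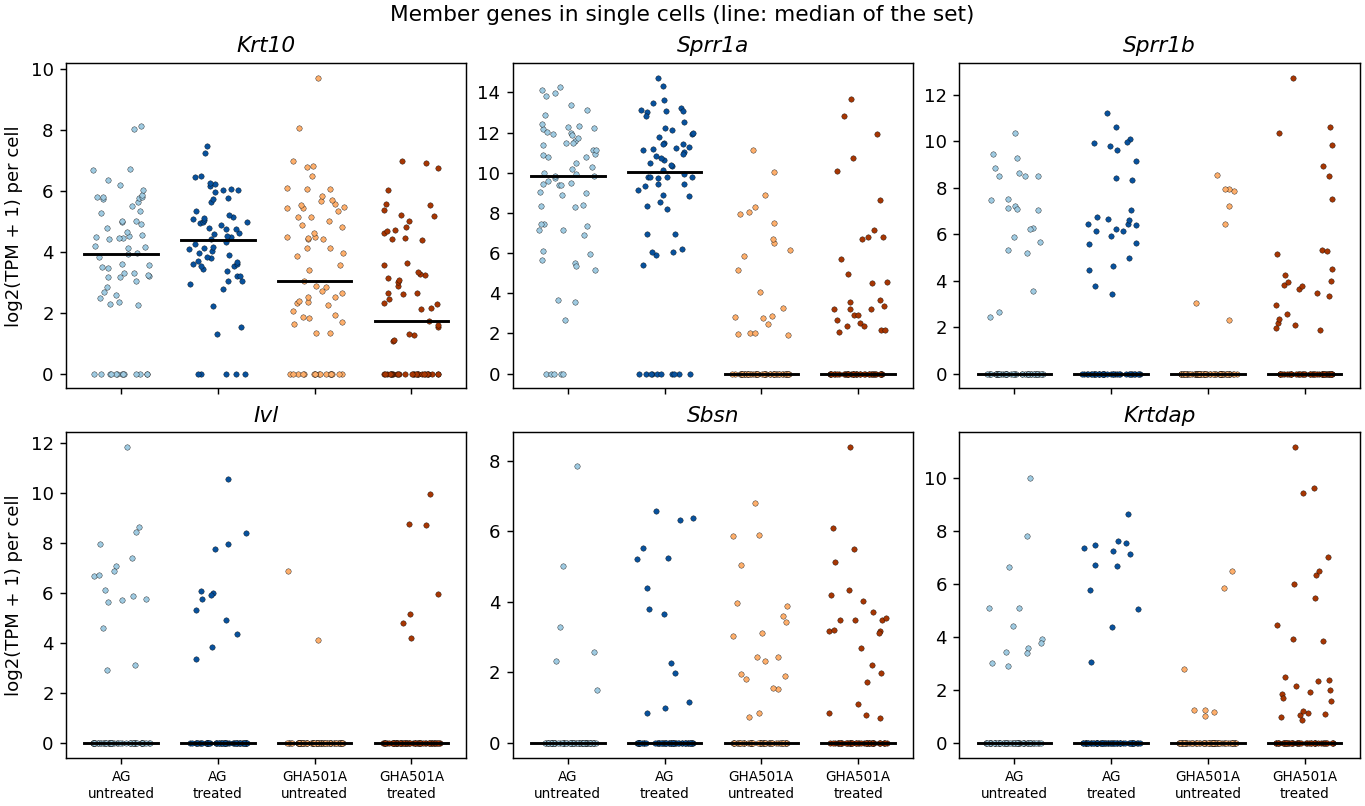
Level of 6 genes in each cell, as log2(TPM + 1) on the vertical axis, for the 4 sets (points: cells, line: median of the set). Only Krt10 and, in AG, Sprr1a have medians above 0, and Sprr1a reaches 27010 TPM in 1 AG treated cell.

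**Figure D2:**
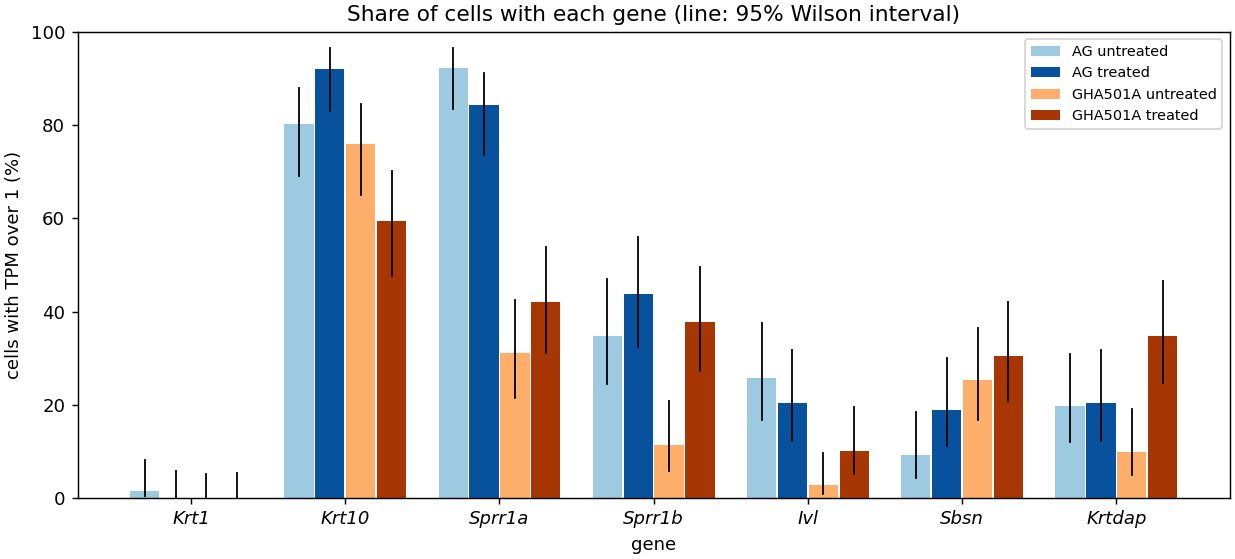
Percentage of cells with TPM over 1 for 7 genes in the 4 sets, with 95% Wilson intervals as lines. Sprr1a is at 92.4% and 84.4% in AG and at 30.99% and 42.03% in GHA501A, and Krt1 is at 1.52% in AG untreated cells and 0 elsewhere.

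Ordered by the mean of each AG set, on the TPM scale, Sprr1a (2701 untreated and 3003 treated) stood far above Sprr1b (87.98 and 172), followed by Ivl (83.9 and 41.1), Krt10 (30.1 and 30.3), Krtdap (23.02 and 27.1) and Sbsn (4.26 and 6.68). Without the highest cell of each gene, Ivl was at 29.6 and 18.2 TPM and Krt10 at 26.2 and 27.97 TPM, so these neighbours in the order did not differ beyond the spread of their sets. A median cell had 3 of the 7 genes over TPM 1 in both AG sets, 1 in GHA501A untreated and 2 in GHA501A treated cells. No cell had all 7, and 0, 1, 10 and 11 cells of the sets in the order above had none. The summed level of the 7 genes had medians of 1206 and 1303 TPM in AG and 21.4 and 24.9 TPM in GHA501A.

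For treatment, limma was run on the log2(mean TPM + 1) of each set, with the series as a block, and a gene was called at an adjusted p under 0.05 (Benjamini-Hochberg over all genes tested) and an absolute log2 difference over 0.5. None of the 12355 genes passed (0%), with 459 at an unadjusted p under 0.05 and 0 called by the fit without the block as well. Of the 6 genes tested here 0 passed, and Sprr1b alone had an unadjusted p under 0.05. An exact permutation test of 2 sets against 2 sets cannot go below a two-sided p of 0.333, so no other test of single values was run.

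Sprr1b was 2.04 ± 0.60 (SE) higher on the log2 scale in treated sets (limma, unadjusted p = 0.0231, adjusted p = 0.998, 2 sets per group). Its difference was 0.96 within AG and 3.12 within GHA501A. Krtdap differed by 2.26 ± 1.01 (SE), with 0.22 in AG and 4.299 in GHA501A. Sprr1a differed by 1.30 ± 0.63 (SE), with 0.15 in AG and 2.46 in GHA501A. For these 3 genes the treated set was higher in both series, and the difference in AG alone was below 1 on the log2 scale. Sbsn differed by 0.66 ± 0.33 (SE), with 0.54 in AG and 0.78 in GHA501A. Krt10 was at -0.68 ± 0.46 (SE), with 0.01 in AG and -1.36 in GHA501A, and Ivl was at 1.18 ± 1.08 (SE), with -1.01 in AG and 3.36 in GHA501A. The adjusted p was 0.998 for each of the 6. The median difference of the 6 genes was 1.24, against -0.000888 for all genes tested. It was 0.19 within AG and 2.79 within GHA501A (all genes -0.07 and 0.06).

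Much of the summed level in the GHA501A treated set came from 1 cell. GHA501A treated cell 25 ranked first in its set for Ivl (986 TPM), Sprr1a (12874), Sprr1b (6724), Sbsn (333) and Krtdap (2300), but had only 4.47 TPM of Krt10. It held 48.98% of the summed TPM of the 7 genes in its set of 69 cells. Its Krt14 level was 10582 TPM and its Col1a1 level 8.57 TPM. The log2 treatment differences were also computed with the highest cell of each gene left out of every set, an alternative chosen after seeing the data. Krtdap was then at 2.67 (2.26 with all cells), Sprr1b at 1.66 (2.04), Ivl at 1.49 (1.18) and Sprr1a at 1.24 (1.30). Sbsn was at 1.06 (0.66) and Krt10 at -0.46 (-0.68). On the mean of log2(TPM + 1) over cells the same genes, in this order, differed by 0.76, 0.98, 0.05, 0.21, 0.40 and -0.26. In both, 0 of the 6 passed. The number of GHA501A cells with Krt14 over 100 TPM was 10 of 71 untreated and 20 of 69 treated, and its part in these differences was not tested.

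Between the series, 3580 of 12355 genes were called, 10.8% of those tested being higher in AG and 18.2% lower. Of the 6 genes tested here, 1 was called, Sprr1a, which was higher in AG. With so few genes, that count is not set apart from the share among all genes. Sprr1a was 4.05 ± 0.63 (SE) higher in AG on the log2 scale, 16.5-fold on the scale of mean TPM + 1 (limma, adjusted p = 0.0124, 2 sets per series). The 2 sets of a series are its untreated and treated sets. The SE and p of this comparison thus do not measure variation between repeated series. Mean levels were 2701 and 3003 TPM in AG and 72.7 and 403 TPM in GHA501A. The difference was 5.20 between the untreated and 2.89 between the treated sets. Ivl differed by 2.69 ± 1.08 (SE, adjusted p = 0.137), Sprr1b by 1.09 ± 0.60 (0.249), Krtdap by 0.87 ± 1.01 (0.561), Krt10 by 0.42 ± 0.46 (0.538) and Sbsn by -0.29 ± 0.33 (0.556), by the same limma fit. None of these 5 was called, but Sprr1b was called with the highest cells left out (1.56, adjusted p = 0.0445), and both Sprr1b (1.43, adjusted p = 0.00837) and Ivl (1.05, adjusted p = 0.0453) were called on the mean of log2(TPM + 1). The median difference of the 6 genes was 0.98, against -0.01 for all genes tested. Series, culture and cell make-up cannot be told apart, and the part of the Col1a1 and Krt14 levels above in these differences was not tested.

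**Figure D3:**
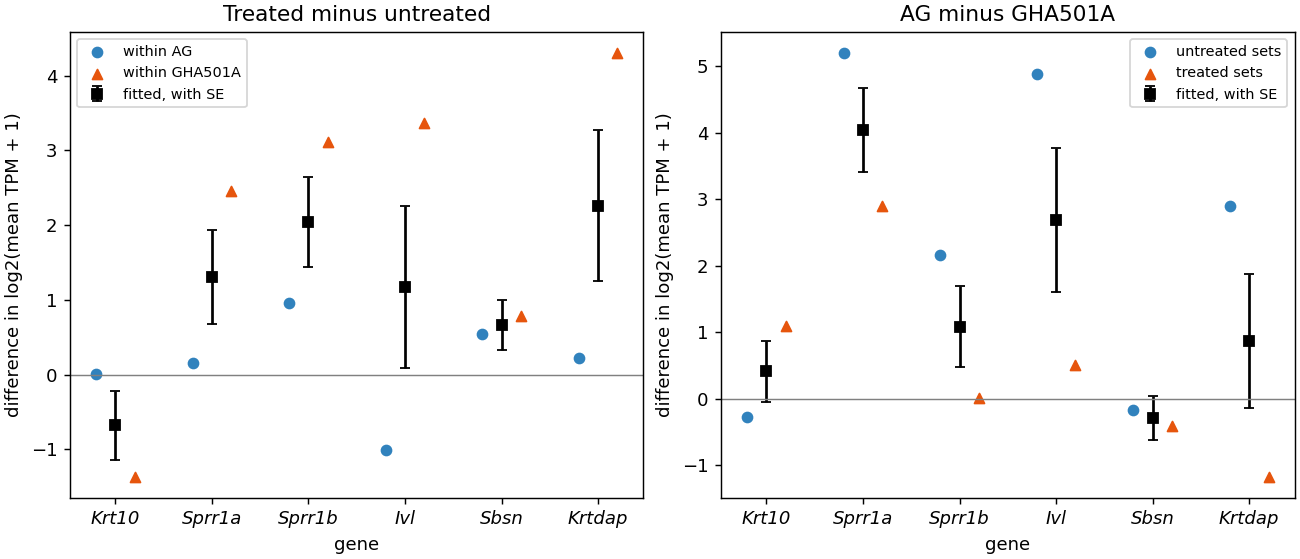
Differences in log2(mean TPM + 1) for 6 genes between treatments and between series (squares: limma estimate with SE, circles and triangles: the difference within each series or treatment). Sprr1a, at 4.05 between the series, is the called gene, and the treatment differences are larger within GHA501A than within AG for Krtdap (4.299 and 0.22).

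The 30 GHA501A cells with Krt14 over 100 TPM were set against the other 110, as a range of 1 gene's level and not a cell type. From 0 to 4 cells per set lay near that threshold, between 50 and 200 TPM. Ivl was over TPM 1 in 9 of the 30 Krt14-high cells (30%) and in 0 of the 110 others, for which the interval reaches 3.37%. Krtdap was found in 63.3% and 10.9%, Sprr1b in 60% and 14.5%, Sbsn in 60% and 19.1%, and Sprr1a in 70% and 27.3% of the Krt14-high and other cells. At a threshold of TPM 10, Krtdap was found in 40% and 0.909% and Sprr1b in 56.7% and 6.36%. All 5 shares were thus higher in the GHA501A cells with more Krt14, within the untreated and within the treated set. The pooled shares hide gaps between the sets, and 20 of the 30 Krt14-high cells were treated. In the other cells, Sprr1b was found in 3.28% of untreated and 28.6% of treated cells, and Krtdap in 3.28% and 20.4%. At a threshold of TPM 10 these were 0 and 14.3% for Sprr1b and 0 and 2.04% for Krtdap, so the Krtdap gap lay mostly in low values. Krt10 went the other way, in 56.7% of the Krt14-high cells and 70.9% of the others, with overlapping intervals (39.2 to 72.6% and 61.8 to 78.6%). The median number of genes per cell was 6596 and 6198.

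Among cells with Krt14 over 100 TPM, AG and GHA501A differed in which of the genes they had. These cells also differed in Col1a1, so they are not cells of equal make-up. Its median was 0 in both AG sets, 9.20 TPM in GHA501A untreated and 91.6 TPM in GHA501A treated cells. Several of these GHA501A treated cells held far more, at 1070, 1285, 3681, 3797, 4727, 4750 and 7075 TPM of Col1a1. Each of these values was above the median of 909 TPM over all GHA501A treated cells. Sbsn was found in 13.95% (9.01 to 20.98%) of the AG cells and in 60% (42.3 to 75.4%) of 30 GHA501A cells. Krtdap was found in 20.2% (14.1 to 27.9%) and 63.3% (45.5 to 78.1%), and Sprr1b in 39.5% (31.5 to 48.2%) and 60% (42.3 to 75.4%). Sprr1a was found in 88.4% and 70%, and its median level was 969 TPM in AG and 22.6 TPM in GHA501A. Ivl was found in 23.3% and 30%. Krt10 was found in 86.8% (79.9 to 91.6%) and 56.7% (39.2 to 72.6%). These intervals pool cells of 2 sets and do not measure the spread between sets. By set, untreated then treated, Sbsn was found in 9.09% and 19.05% in AG and in 70% and 55% in GHA501A. Krtdap was found in 19.7% and 20.6% in AG and in 50% and 70% in GHA501A. Krt10 was found in 80.3% and 93.7% in AG and in 70% and 50% in GHA501A. The gaps depended on the Krt14 threshold. Averaged over the treatments, AG minus GHA501A moved from -48.4 to -23.7 percentage points for Sbsn, -39.8 to -20.5 for Krtdap, -20.4 to -4.51 for Sprr1b and 18.3 to 41.3 for Sprr1a when the threshold was 10 TPM, and the order turned for Ivl (-4.30 to 8.27). At 1000 TPM it was -52.7, -57.3, -39.5, 10.4 and -15.2 for the same 5 genes. As cells of 1 set are not replicates, these shares were not tested.

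**Figure D4:**
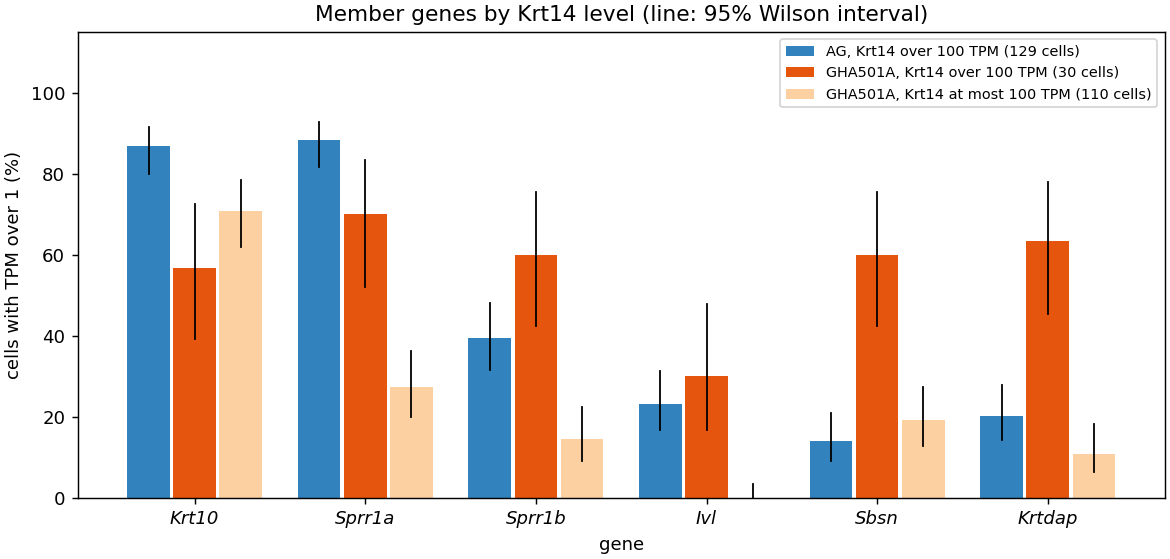
Percentage of cells with TPM over 1 for 6 genes in AG cells with Krt14 over 100 TPM, 30 such GHA501A cells and the other 110 GHA501A cells, with 95% Wilson intervals as lines. Sbsn and Krtdap are at 60% and 63.3% in the middle class, and Ivl is at 0 in the cells with less Krt14.

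Within cells the correlations between the genes were low in AG. Detection was sparse, with 18 AG cells holding Sbsn, 26 Krtdap and 30 Ivl, so a low value cannot be told from missed detection. Over 130 AG cells, which share 2 sets of libraries, the Spearman correlations of the 15 pairs among the 6 genes ranged from -0.17 to 0.29 with a median of 0.09. The highest was between the paralogs Sprr1a and Sprr1b (0.29), and 48 of the 51 cells with Sprr1b also had Sprr1a. The neighbours Sbsn and Krtdap followed at 0.21, with 7 cells holding both, 38.9% of the Sbsn cells and 26.9% of the Krtdap cells. Krt10 and Ivl had the lowest value, -0.17. Of the 30 AG cells with Ivl, 96.7% had Sprr1a and 10.0% had Sbsn, against 86% and 15% of the other 100.

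Over the 140 GHA501A cells the same pairs ranged from -0.19 to 0.53 with a median of 0.30, and 10 of the 15 were above 0.2. Sprr1b and Krtdap were at 0.53 and Sprr1b and Ivl at 0.50. All 9 GHA501A cells with Ivl also had Sprr1b, 88.9% of them had Sbsn and 77.8% had Krtdap. Among the other 131 cells these were found in 19.1%, 23.7% and 18.3%. Within the 30 Krt14-high cells, a subset looked at after seeing the data, the median of the 15 correlations was 0.29 (highest 0.60, Sprr1a with Sprr1b). There Krt10 was at 0.32 with Sprr1a, 0.34 with Sbsn and 0.22 with Sprr1b, but at -0.17 with Ivl and -0.09 with Krtdap. Within the other 110 cells the median of the 10 pairs without Ivl was 0.08. Most of these values are weak and rest on sparse detection, so they are descriptions only.

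**Figure D5:**
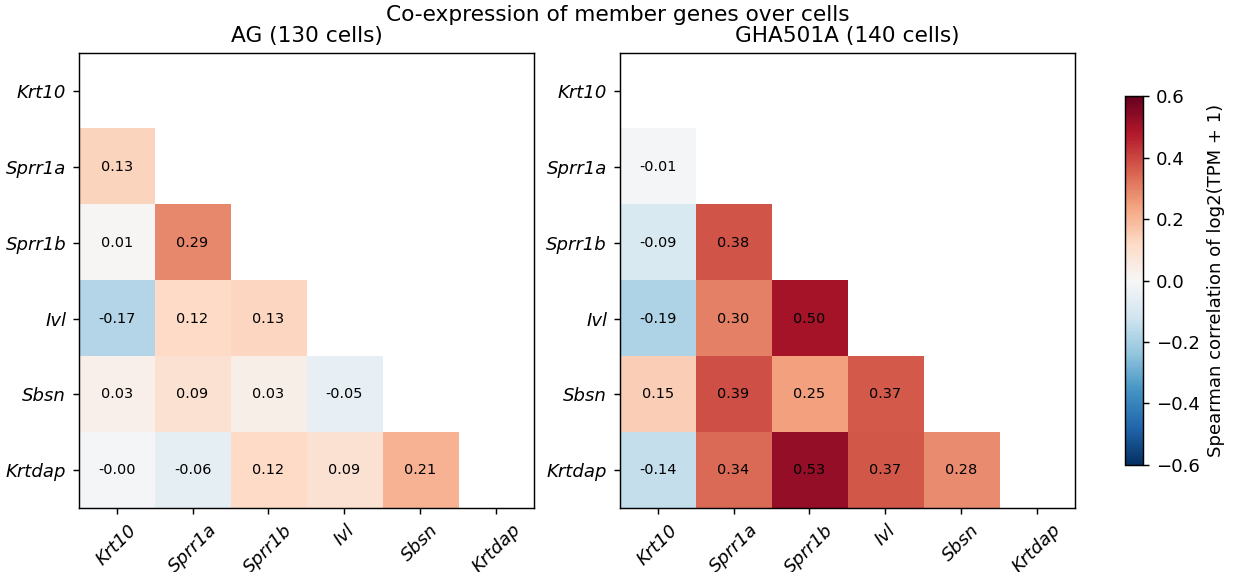
Spearman correlation of log2(TPM + 1) for each pair of 6 genes over 130 AG cells and over 140 GHA501A cells (colour and printed value). The AG values run from -0.17 to 0.29 and the GHA501A values from -0.19 to 0.53.

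The genes differed in their relation to proliferation genes and to Krt14. The Spearman correlation of Sprr1a with the mean log2(TPM + 1) of 12 proliferation genes was -0.35 in untreated and -0.26 in treated cells, and -0.11 and -0.02 in GHA501A. The Pearson values in AG were -0.35 and -0.12. Krtdap had the opposite sign, 0.08 in AG untreated and 0.44 in AG treated cells, and 0.04 and 0.02 in GHA501A. With Col1a1, Sprr1a was at -0.27 and -0.24 in AG. The correlation of Sprr1a with the number of genes detected was -0.07 and -0.09 in AG, and that of Krtdap was 0.26 and 0.21. With Krt14, Krtdap was at 0.32 in GHA501A untreated and 0.64 in GHA501A treated cells, against -0.03 and -0.02 in AG, and Sprr1b was at 0.45 and 0.50, against 0.01 and 0.17.

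For each gene found in at least 10% of both AG sets, the most alike of 9849 other genes was taken by the lower of its Spearman correlations over the 66 untreated and 64 treated cells. For Sprr1a these were Sprr2b, another small proline-rich protein gene (0.53), and Nupr1, a stress-response regulator (0.51). For Krt10 they were Ten1, of a telomere-binding complex (0.48), and Krt17, a keratin of hair follicles and wounded or cultured epidermis (0.41). Ivl was most like Lypd3, a surface protein of suprabasal cells (0.36), and Cdk5r1 (0.33). Values were lower for Sprr1b, with Psapl1 (0.35) and Map4k2 (0.30), and for Krtdap, with St13 (0.31) and Lin9 (0.30). Each is the highest of many and is given as a description.

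The other genes of the pathway were taken from 2 lists. Of 78 further cornified envelope and late differentiation genes, 54 had a row and 43 were tested. None was called between treatments. Between the series, 13 of the 43 were higher in AG and 9 lower, beside 10.8% higher and 18.2% lower among all genes, with a median difference of 1.01 (1.61 between the untreated and 0.25 between the treated sets). The 3 with the highest mean level in AG were Lypd3 (429 and 290 TPM in untreated and treated cells), Klk8, a serine protease (131 and 198), and Lce1f, a late cornified envelope gene (187.8 and 48.9). These 3 were not called between the series, with differences of 2.45, 0.61 and 0.62. Among the largest called differences upwards in AG were those of Sprr2b (5.83 ± 0.35 SE), the transglutaminase Tgm5 and the actin-binding Pof1b (4.07 ± 0.38). Sprr2b was found in 53.03% and 60.9% of AG cells and in 0 and 1.45% of GHA501A cells, and Tgm5 was at 17.1 and 24.4 TPM in AG and listed at 0 in GHA501A. Lower in AG were Mt4, a metallothionein of stratified epithelia (-6.60 ± 0.73), and Dmkn, dermokine (-3.64 ± 0.86). Mt4 was found in 0 and 3.12% of AG cells, untreated and treated, and in 60.6% and 39.1% of GHA501A cells.

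Of 44 regulators of epidermal differentiation, 38 had a row and 37 were tested. None was called between treatments, and between the series 13 of the 37 were higher in AG and 4 lower, beside the same 10.8% and 18.2% among all genes, with a median difference of 1.10 (1.17 and 1.01). Most abundant in AG were the Notch ligand Jag1 (1365 and 390 TPM, called at 2.30 ± 0.48 SE), the inhibitor Id2 (648 and 748, not called at 1.21) and Sox9 (634 and 434, not called at 1.18). Higher in AG were the transcription factors Zfp750 (3.96 ± 0.57) and Ehf (3.82 ± 0.40), which act in epidermal differentiation. Lower were the ETS factor Elf3 (-4.78 ± 0.33), the AP-1 subunit Fosl1 (-3.73 ± 0.36) and Tfap2a (-3.32 ± 0.33). Fosl1 had a median of 0 in both AG sets and of 329 and 475 TPM in the GHA501A sets, opposite in direction to Sprr1a.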

How the data were processed

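Single-cell libraries were made on a C1 device with SMART-Seq v4 and sequenced as paired reads of 100 bases, with doublet capture sites excluded by imaging. Per the submitters' processing notes and the study's methods, the authors used FastQC, cutadapt, TopHat (GRCm38, multiply-mapped reads discarded) and featureCounts, and deposited TPM values (versions not given in the sources used here). The deposited table has 14145 genes in 294 columns, 16 of which could be tied to no labelled sample and stayed unused. The 8 AG cells whose name and treatment label conflict were used in alternatives only. Depth is not kept by TPM, and neither is the precision of low values.

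Tests covered the 12355 genes that exceeded TPM 1 in over 5 cells. Cells were averaged per set, and log2(mean TPM + 1) was compared with limma 3.58.1 in R 4.3.3 (moderated two-sided test, Benjamini-Hochberg adjustment), with treatment and series as terms, since the study controlled for batch. Fold changes on this scale understate those of low genes. Deviations of same-series sets correlated at r = 0.863 over 12355 genes. Shares and correlations over cells are descriptions with no test, and Wilson intervals of 95% are given. Alternatives are given in the closing section. Steps were tested on simulated data. Other computations used Python 3.11.15, pandas 2.3.3, numpy 2.4.6, scipy 1.17.1 and matplotlib 3.10.9.

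The members and lists were chosen with earlier results of these data known. The genes named are the members with a row, for each member in at least 10% of both AG sets the 2 most alike genes in AG, and, of each further list, the 3 with the highest mean TPM in AG and up to 3 with the largest called difference between the series in each direction, with Krt14, Krt5 and Col1a1 for the cell type. Itgb4 was named after its values were seen, and 2 genes that the rule names are not reported here.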

Additional observations from a re-analysis of the deposited data

Results flagged for a closer look

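The treatment difference of Ivl had opposite signs in the series on the scale of log2(mean TPM + 1), -1.01 in AG and 3.36 in GHA501A, and that of Krt10 was 0.01004 in AG and -1.36 in GHA501A. The difference between AG and GHA501A likewise changed sign with treatment for Krt10, -0.27 in untreated and 1.10 in treated sets, and for Krtdap, 2.91 and -1.17. With 1 set for each series and treatment, these differences between effects were not tested. In each set, 1 cell held 49.9% to 87.8% of all Ivl TPM.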

How the results depend on the processing

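Treated against untreated sets gave 0 called genes and 0 called members under each of the 9 alternative fits. The limma adjusted p of Sprr1a between the series ranged from 0.000307 to 0.0335 over these fits and its log2 difference from 4.05 to 6.94. On the mean of log2(TPM + 1), which weights high cells less, 5539 genes and 3 members were called between the series (Sprr1a, Sprr1b and Ivl). With the highest cell of each gene and set left out, chosen after seeing the data, 2 members were called (Sprr1a and Sprr1b). With treatment left out as a term, the series fit called 3853 genes and Sprr1a alone of the members. With the series left out as a block, the treatment fit called 0 genes. Neither changed a call among the members. The 2 pairs of sets share a series name, and no label says that they share a culture or day. Leaving out 1 set leaves no residual degrees of freedom, so only values were computed: Sprr1a lay between 2.89 and 5.20 higher in AG, Ivl between 0.50 and 4.88, Sprr1b between 0.01 and 2.17, Krt10 between -0.27 and 1.10, Krtdap between -1.17 and 2.91 and Sbsn between -0.41 and -0.17. Depth is not recorded in TPM, so a value of 0 cannot be told from a low level.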
